A study of Mus musculus with 5 samples.

Results

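Transcripts of heat shock proteins and chaperonins were examined in haematopoietic stem cells (HSCs) of mouse bone marrow. Members were the rows of the deposited count table whose symbols follow the naming series of HSP70 and HSP110 (Hspa, Hsph), HSP90, the small heat shock proteins (Hspb), the mitochondrial chaperonin (Hspd, Hspe), the J-domain proteins (Dnaja, Dnajb, Dnajc) or the cytosolic chaperonin (Cct, Tcp1), plus the transcription factors Hsf1 and Hsf2, with at least 100 counts over all libraries. Of 35976 gene rows, 82 matched these names and 68 reached the minimum. The member nearest above the minimum was Hspa12b with 122 counts, and the row nearest below it was Hspb2 with 89. The study compared 2 libraries labelled WT with 3 labelled Ythdf3-/-, which asks what the loss of YTHDF3, a protein that binds methylated adenosines of mRNA, does to the transcriptome of these cells. All mice were C57BL/6. Each library held 30 cells that carried Sca-1, CD150 and c-kit but neither CD34 nor lineage markers, amplified by Smart-seq2. Per the series text each sample is another mouse, and that text counts 2 knockout and 3 WT samples, where the labels give the reverse. The sources used here give no age, no sex and no description of the Ythdf3 allele.

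Chaperones bind unfolded protein chains and use ATP to let them fold. HSP70 takes clients from J-domain proteins and is recharged by exchange factors such as the HSP110 family, HSP90 acts later on kinases and receptors, and the barrel-shaped chaperonin TRiC folds actin, tubulin and other cytosolic proteins. The endoplasmic reticulum (ER) and the mitochondrion hold their own sets, which are induced when misfolded proteins gather there, while HSF1 drives the heat shock genes of the cytosol. HSCs make protein slowly and are known to depend on protein quality control.

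The libraries held between 6357862 and 16650134 counts, so that 3 counts, the limit below which a gene is treated as not detected, correspond to between 0.180 and 0.472 CPM (the count over the library total, times 1000000). Ythdf3 itself was read 20 and 29 times with the WT label, against 2, 339 and 366 times with the Ythdf3-/- label. The counts of the libraries labelled Ythdf3-/- 2 and 3 go against the label, while the 2 counts of that labelled Ythdf3-/- 1 do not. Libraries are therefore called by label throughout and every direction refers to labels alone. All 8 HSC markers examined had counts in every library. Slamf1, which encodes CD150, had 1 count in the library labelled WT 2 and between 211 and 482 elsewhere, and Fgd5 had 2 and 5 counts in those labelled Ythdf3-/- 1 and 3 and between 303 and 713 elsewhere. The 10 proliferation markers summed to 848.6 CPM in the library labelled WT 2 and to between 33.8 and 144.9 CPM elsewhere, with Ccnb2 and Cdca8 at 0 in that labelled Ythdf3-/- 1 and Ccnb1 at 0 in that labelled Ythdf3-/- 2. Ccnb1, Cdk1 and Aurkb were not highest in the library labelled WT 2. Ccnb1 had 4 counts there against 183 in that labelled WT 1, and Cdk1 44.3 CPM against 55.0 CPM. Aurkb had 4 counts there against 131 in that labelled Ythdf3-/- 1. The 10 erythroid markers summed to 35597 CPM in the library labelled Ythdf3-/- 1, to 1451 CPM in that labelled WT 2 and to between 34.1 and 162.8 CPM in the other libraries. B lymphoid markers summed to 1258 CPM in the library labelled Ythdf3-/- 1 and to 538 CPM in that labelled WT 1, against at most 217.9 CPM elsewhere. The 7 granulocyte markers summed to between 316.4 and 704.3 CPM, of which Prtn3 alone made between 305.2 and 652.2 CPM. Mpo and Ctsg were at 0 in 4 libraries. In pools of 30 cells, fewer cells of a type and less RNA per cell cannot be told apart.

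Regulatory sequence upstream of the members is shown first, for the few members that hold a stress-response element near their start. RefSeq promoter entries (250 bases before to 50 after a start, GRCm38.p6, which is mm10) were found for 55 of the 68 members. A heat shock element of 3 units, the binding pattern of HSF1, was searched on both strands as GAANNTTC followed directly by NNGAA, or TTCNNGAA followed directly by NNTTC, where N is any base. It was present at 4 of the 55 members (Hspd1, Hspe1, Hsph1 and Dnajb6) and at 0.662% of all 27025 genes with an entry. Hspd1 and Hspe1, the barrel and the lid of the mitochondrial chaperonin, are transcribed away from each other. Hspd1 has several annotated starts: from 1 of them 215 bases separate it from the start of Hspe1, and another (55088243) lies 95 bases past the Hspe1 start, so that the genes share 112 exon bases, whose reads cannot be told apart without strand. Overlapping matches, in capitals, lie in these 215 bases (chr1:55088054-55088081, plus strand) and also within an exon of a longer Hspd1 transcript in GENCODE M21:
Hspd1-Hspe1: gtccgTTCTAGAACCTTCCGGAAggccc
The match nearer to Hspe1 ended 71 bases before its start. At Dnajb6 the element (capitals, chr5:29735847-29735869, plus strand) lay upstream of the start as well, whereas the match of Hsph1 lay after the start and is not printed:
Dnajb6: tccgaGAATCTTCCGGAAcgcta

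The ER stress response element, searched on both strands as CCAAT, then 9 bases of any kind, then CCACG, was present at 3 of the 55 members and at 0.137% of all genes with an entry. All 3 encode proteins of the ER lumen: Hspa5 (BiP, the ER form of HSP70), Hsp90b1 (GRP94, the ER form of HSP90) and Dnajc3 (a J-domain partner of BiP). A shorter pattern, ATTGG, then 1 base of any kind, then CCACG, also on both strands, was present at 1 member, Dnajb11, another J-domain partner of BiP, where it lay after the start, and at 0.0444% of all genes. The matches are printed in capitals with their flanks, on the strand of the gene, since the levels of these 3 genes are compared library by library below:
Hspa5 (chr2:34772020-34772048, plus): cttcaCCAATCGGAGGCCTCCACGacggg
Hsp90b1 (chr10:86705633-86705661, minus): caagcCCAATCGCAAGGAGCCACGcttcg
Hsp90b1 (chr10:86705528-86705556, minus): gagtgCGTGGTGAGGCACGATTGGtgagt
Dnajc3 (chr14:118937822-118937850, plus): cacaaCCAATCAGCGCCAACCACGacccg
Upstream refers to the RefSeq starts. In GENCODE M21, which has further starts, the matches at Hspa5 and Dnajb6 lie within an annotated exon. These are matches of letters, and no binding was measured.

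Chaperone transcripts took between 1.08% and 1.53% of all counts in a library. Across the members no difference between the labels passed the edgeR quasi-likelihood test: 0 of the 67 members tested had an adjusted p under 0.05 (range 0.964 to 0.9998), as was the case for 0% of all 11146 genes, and 0 passed in DESeq2 (2.24% of all genes) or limma voom (0%). At an unadjusted p under 0.05, edgeR gave 2 members lower with the Ythdf3-/- label, Hspe1 and Dnajc5, against 2.75% of all genes tested, and 0 higher, against 2.11%. Groups did not overlap for 3 members that were higher with the Ythdf3-/- label, against 9.74% of all genes tested, and for 10 that were lower, against 11.0%. Fitted levels were lower for 38 of 67 members (52.2% of all genes tested) and higher for 29 (47.8%). The median log2 fold change of the members was -0.18, against -0.06 over all genes tested.

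**Figure D1:**
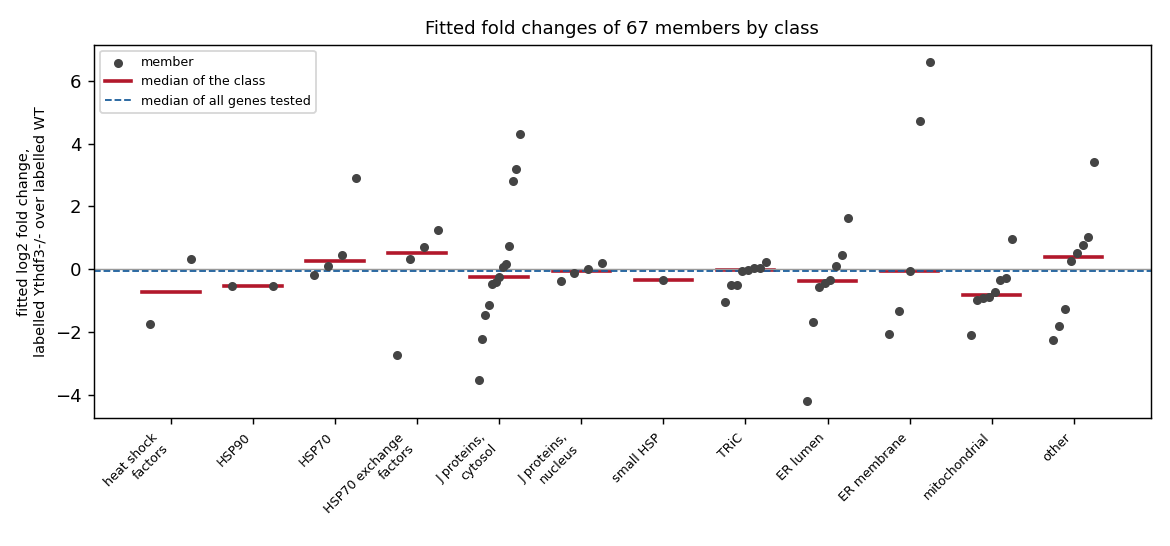
Fitted log2 fold changes (labelled Ythdf3-/- over labelled WT, vertical axis) of the 67 tested members by class on the horizontal axis, with each member as a point, the class median as a red line and the median of all tested genes as a dashed line. The mitochondrial class has 7 of 8 points below 0 and TRiC lies close to 0, while classes of low-count genes are widely spread.

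By compartment, the 8 mitochondrial members had the lowest median of those with 5 members or more, -0.82, with 7 lower and 1 higher. The 32 tested members of the cytosol had a median of -0.03 (15 higher, 17 lower) and the 13 of the ER -0.34 (5 higher, 8 lower). Leaving out each library in turn kept the mitochondrial median between -1.10 and -0.65. The mitochondrial median was -0.56 without both libraries labelled WT 2 and Ythdf3-/- 1, and -1.04 in limma voom. That of the ER lumen, -0.39, went to 0.04 without the library labelled Ythdf3-/- 3 and to -0.02 without that labelled WT 2.

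Uneven detection between libraries was common among the less abundant members. At least 10 CPM in every library was reached by 37 of the 67 tested members (55.2%, against 38.7% of all genes tested), and 22 had 5 counts or fewer in at least 1 library (32.8% against 42.2%). A difference of at least 5-fold between the highest and the lowest library was seen for 40 (59.7% against 69.7%). Members were chosen for a minimum of counts, so these shares are a description. The library labelled WT 2 was the highest for 21 of the 67 (31.3%, against 22.9% of all genes tested), and that labelled Ythdf3-/- 3 was the lowest for 21 (31.3% against 17.1%).

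The cytosolic core was abundant and even. Hspa8 (chromosome 9, 40801276 to 40805202), the constitutive HSP70, stood at 2503 and 1937 CPM with the WT label (WT 1 and WT 2, in this order throughout) and at 2555, 2948 and 2047 CPM with the Ythdf3-/- label (1, 2 and 3). It had the highest mean of all members per length of transcript, 1002 CPM per kb, and the highest and lowest libraries differed by 1.52-fold. The label groups overlapped (log2 fold change 0.10, SE 0.25, edgeR adjusted p = 0.9998). Of its transcript, 32.1% of 100-base windows are identical to a transcript of another gene, so part of its reads may be counted elsewhere or dropped.

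Hsp90ab1 (chromosome 17, 45567778 to 45573261), the constitutive HSP90, was second per length at 908 CPM per kb. It stood at 2019 and 3388 CPM with the WT label and at 1882, 2591 and 1562 CPM with the Ythdf3-/- label. The inducible paralogue Hsp90aa1 (chromosome 12, 110691036 to 110696395) was more variable, at 364.7 and 1429 CPM against 637, 631.5 and 727 CPM. Its highest value lay in the library labelled WT 2 and its lowest in that labelled WT 1, so both extremes carried the same label. Its mean was 897 ± 752 CPM (SD, n = 2) with the WT label and 665 ± 53.8 CPM (SD, n = 3) with the Ythdf3-/- label. Its fitted log2 fold change, -0.54, was 0.83 when the library labelled WT 2 was left out. The sum of the proliferation markers given above was also highest in that library. Their part in this value was not tested. Counts of Hsp90aa1 per count of Hsp90ab1, each per length of transcript, ran from 0.139 in the library labelled WT 1 to 0.358 in that labelled Ythdf3-/- 3, so the constitutive form led in every library. Identical windows are a limit here as well, at 47.5% of the Hsp90aa1 transcript.

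**Figure D2:**
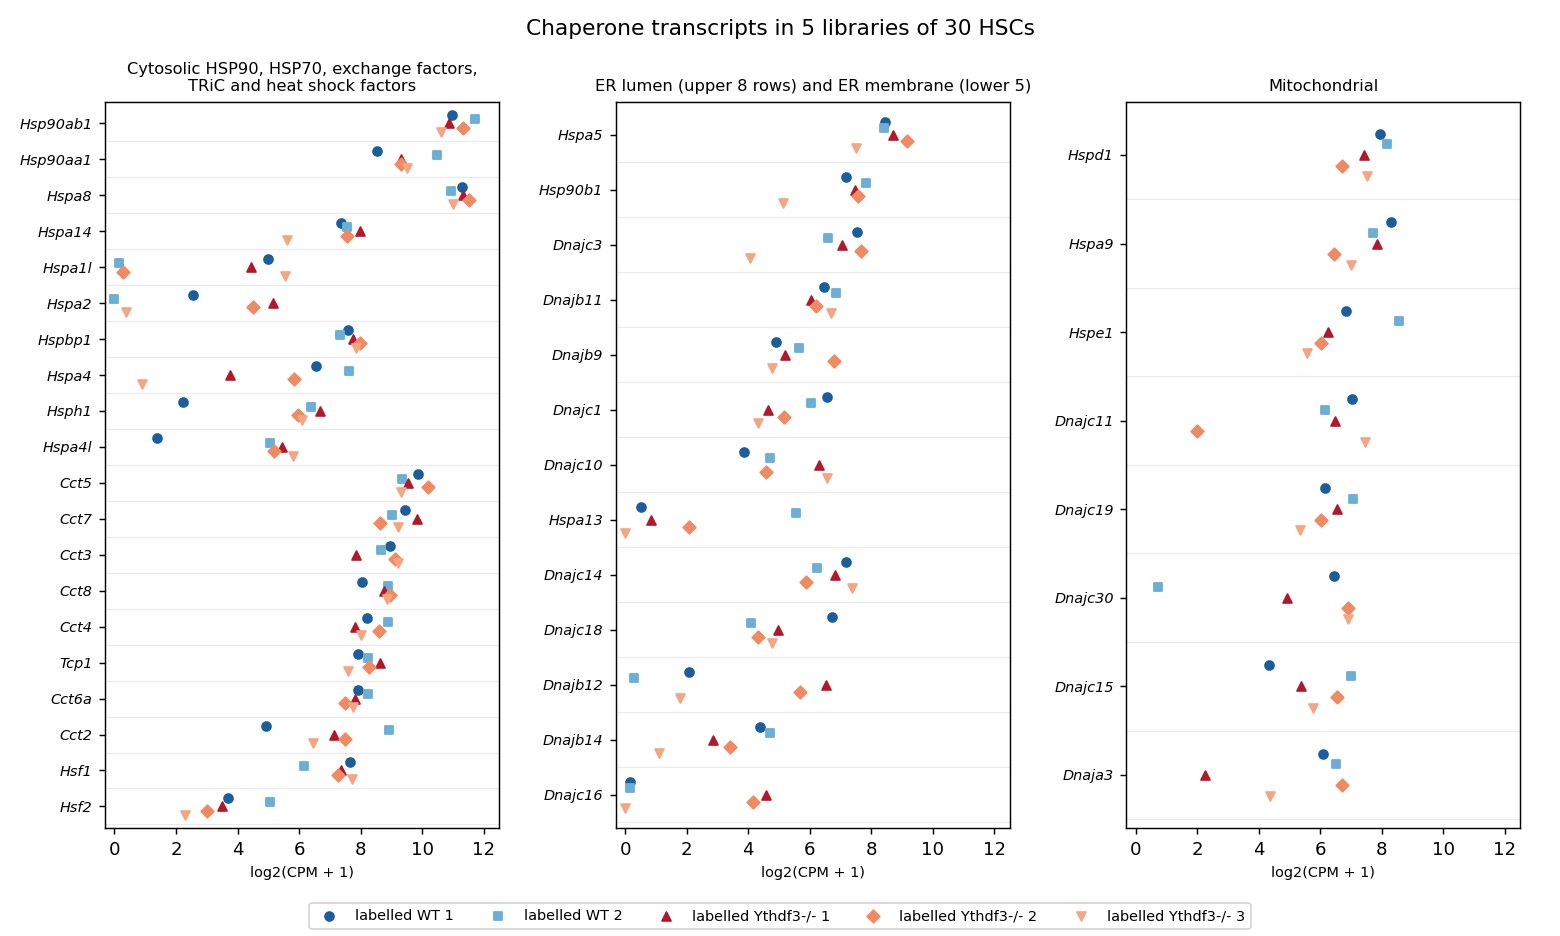
Levels as log2(CPM + 1) on the horizontal axis for named chaperones in rows, with 1 symbol per library (blue, labelled WT; red and orange, labelled Ythdf3-/-). Hspa8, Hsp90ab1 and 7 of the 8 TRiC subunits form tight groups, whereas Cct2, Hsph1 and Hspa4l are low in the library labelled WT 1 and several ER genes are low in that labelled Ythdf3-/- 3.

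The stress-inducible HSP70 genes Hspa1a and Hspa1b were listed at 0 in all 5 libraries, which allows up to 3 counts, or between 0.180 and 0.472 CPM. They are near copies: 56.5% of the 100-base windows of Hspa1a and 49.9% of those of Hspa1b recur in other genes, mainly in each other, and the sources used here do not say how reads matching several places were treated. Among the other matching rows, 8 more were at 0 in every library (Hspa12a, Hspb3, Hspb7, Hspb8, Hspb9, Dnajb5, Dnajb8 and Dnajc22). Hspb1 (HSP27) had 58 counts, of which 56 lay in the library labelled Ythdf3-/- 1, while Dnajb7 had 4 counts in all. Of the 89 counts of Hspb2, 88 lay in the library labelled WT 1, as did all 74 of Dnajb13.

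Hsf1 (chromosome 15, 76477362 to 76501155), the factor that drives heat shock genes, was present in every library at 198.3 and 70.2 CPM with the WT label and at 164.5, 151.5 and 210.4 CPM with the Ythdf3-/- label. The groups overlapped. Hsf2, a related factor active in development, was lower in counts, with 200 and 288 with the WT label and 65, 64 and 27 with the other. The groups of Hsf2 did not overlap on the CPM scale, but the difference did not pass (log2 fold change -1.75, SE 2.04, edgeR adjusted p = 0.9998) and was -0.81 when that labelled WT 2 was left out. Dnajb1, the J-domain partner of HSP70 that is induced with it, ran from 128.2 to 389.4 CPM with overlapping groups.

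The remaining HSP70 genes of the cytosol varied more. Hspa14, an atypical HSP70 that works at the ribosome, had 161.5 and 185.0 CPM with the WT label and 252.4, 186.7 and 47.6 CPM with the Ythdf3-/- label. Hspa2 and Hspa1l, both best known from the testis, were each near 0 in 2 libraries: Hspa1l had 516 and 1 counts with the WT label and 131, 2 and 321 with the Ythdf3-/- label, and Hspa2 had 80 and 0 against 219, 195 and 2. Hspa1l shares 70.8% of its windows with other genes, so its values are uncertain.

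No exchange factor of HSP70 passed the test, and their values varied between libraries. Hspa4, an HSP110 protein, had 1540 and 1774 counts with the WT label and 79, 504 and 6 with the Ythdf3-/- label. Every library labelled WT lay above every other, yet the fit did not pass (log2 fold change -2.74, SE 1.39, edgeR adjusted p = 0.983), with values between -4.55 and -2.04 when each library was left out. For its relatives Hsph1 (HSP105) and Hspa4l a single library stood apart. Hsph1 had 61 counts in the library labelled WT 1, against 747 in that labelled WT 2 and 651, 554 and 473 with the Ythdf3-/- label. Hspa4l had 27 and 289 counts against 270, 317 and 385. On the CPM scale its groups did not overlap, at 1.62 and 32.2 CPM against 42.5, 34.9 and 54.9 CPM. Hsph1 and Hspa4l were thus both low in the library labelled WT 1, the deepest of the 5. Without the library labelled WT 2 their log2 fold changes went from 0.70 to 4.35 and from 1.26 to 4.72. Without the library labelled WT 1 they were -0.25 and 0.32. Hspbp1, an exchange factor of another family, was the steadiest member of this class, at 190.5 and 160.6 CPM against a lowest value of 215.6 CPM with the Ythdf3-/- label (1371, 2269 and 1605 counts). Its groups did not overlap, and the difference of 0.31 (SE 0.41, edgeR adjusted p = 0.9998) was small.

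The cytosolic chaperonin TRiC is a double ring in which 8 related subunits each occupy a fixed place. All 8 subunit transcripts were above 10 CPM in every library, and their summed level ran from 3043 CPM in the library labelled Ythdf3-/- 3 to 3643 CPM in that labelled Ythdf3-/- 2. Per length of transcript, Cct5 was the highest subunit in every library, between 342 and 623 CPM per kb. Cct7 and Cct3 followed with means of 255.6 and 231 CPM per kb, then Cct8 (178.4), Cct4 (131.4), Tcp1 (116.6), Cct6a (94.4) and Cct2 (94.1). The ranges of all neighbours in this order overlapped over the 5 libraries: the lowest Cct5 value, 342 CPM per kb, lay below the highest Cct7 value, 376. The gap between the highest and lowest subunit was 2.85-fold in the library labelled WT 2 and 32.8-fold in that labelled WT 1.

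**Figure D3:**
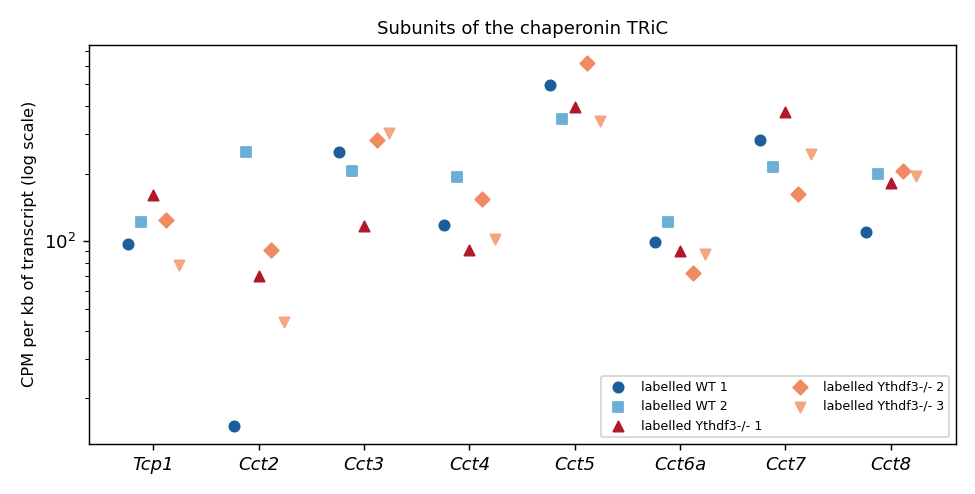
Level of each TRiC subunit in CPM per kb of transcript (log axis), with 1 symbol per library. Cct5 is the highest subunit in every library, and Cct2 alone spreads widely, from 15.1 in the library labelled WT 1 to 249.1 in that labelled WT 2.

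The 32.8-fold gap rested on Cct2 (chromosome 10, 117050997 to 117063852). Its counts were 493 and 4377 with the WT label (WT 1 and WT 2) and 876, 1633 and 603 with the Ythdf3-/- label. In CPM these are 29.6 and 488 against 137.8, 179.9 and 85.9, a 16.5-fold range in which the extremes carry the same label. The other 7 subunits differed by between 1.69-fold (Cct6a) and 2.60-fold (Cct3) from the highest to the lowest library, and leaving Cct2 out brought the gap in the library labelled WT 1 to 5.10-fold. Leaving out the library labelled WT 2 moved the log2 fold change of Cct2 from -1.06 to 2.15, and leaving out that labelled WT 1 moved it to -1.98. Cct6a was the 1 subunit whose groups did not overlap, at 242.3 and 300.2 CPM with the WT label and 222.9, 177.5 and 216.1 CPM with the Ythdf3-/- label (log2 fold change -0.50, SE 0.39, edgeR adjusted p = 0.9998). Of its windows, 14.99% are shared with Psph. The median log2 fold change of the subunits was -0.03 and ran from -0.03 to 0.05 over the 4 scalings, turning sign, and from -0.26 to -0.09 when each library was left out.

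J-domain proteins choose the clients of HSP70. Of the 14 members placed in the cytosol, Dnajb1, Dnaja1 and Dnaja2 had the highest mean CPM, and Dnaja1 was even, at 129.2 and 222.0 CPM with the WT label and 152.6, 211.1 and 223.9 CPM with the Ythdf3-/- label. Dnaja2 ran from 104.5 to 207.4 CPM, Dnajc7 from 40.2 to 198.5 CPM, Dnajb6 from 26.0 to 60.2 CPM and Dnajc2, a ribosome-bound J protein, from 29.7 to 189.7 CPM. The groups of all 5 overlapped.

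Dnajc5 (chromosome 2, 181518858 to 181552886), the cysteine string protein of secretory vesicles, was 1 of the 2 members with an unadjusted p under 0.05. It had 1403 and 1263 counts with the WT label and 115, 363 and 135 with the Ythdf3-/- label, or 84.3 and 140.8 CPM against 18.1, 40.0 and 19.2 CPM. Both libraries labelled WT lay above all 3 others (log2 fold change -2.22, SE 0.92, unadjusted p = 0.0422, edgeR adjusted p = 0.983). Leaving out each library gave values from -2.70 to -1.74, and the adjusted p over the 14 alternatives ran from 0.345 in DESeq2 to 1.0. No exon of Dnajc5 overlaps another gene and no 100-base window recurs elsewhere.

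Several J-domain genes were read in abundance in some libraries and nearly missing in others. Dnajb2 had 39 and 3 counts with the WT label and 80, 113 and 426 with the Ythdf3-/- label, without overlap (log2 fold change 4.32, SE 2.51, edgeR adjusted p = 0.9998; 3.16 to 6.21 when each library was left out). Dnaja4 had 874 and 95 counts against 2, 73 and 0, also without overlap on the CPM scale, and 51.03% of its windows are shared with Wdr61. Dnajb4 had 3 counts in the library labelled WT 2 and between 185 and 626 elsewhere. These rows show how much single libraries decide. Dnajc6 (auxilin, which uncoats clathrin vesicles) had 508 counts in the library labelled WT 1 and 1, 1, 0 and 0 in the others, and was the 1 member removed by the low-count filter. Dnajc13, an endosomal protein, was read 285 times in that labelled Ythdf3-/- 3 and at most 31 times elsewhere. Dnajc24, a factor of diphthamide synthesis, ran from 0 counts in the library labelled Ythdf3-/- 2 to 533 in that labelled WT 1, and Dnajc27 from 1 count in the library labelled Ythdf3-/- 2 to 276 in that labelled Ythdf3-/- 1.

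Among J proteins of the nucleus, Dnajc8, a splicing-associated protein, ran from 129.8 to 383.3 CPM, and Dnajc9, a histone chaperone, from 51.7 to 237.4 CPM. Their groups overlapped, and Dnajc9 was highest in the library labelled WT 2. Dnajc17 had 11 and 498 counts with the WT label and 292, 417 and 3 with the other, and Dnajc21, a factor of ribosome assembly, had 5 and 284 against 149, 9 and 255. Both were below 1 CPM in 1 library of each label and above 30 CPM in another of the same label. The 1 small heat shock protein with enough counts, Hspb6, had 816 and 60 counts against 436, 0 and 5.

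In the ER lumen, levels were set apart in a single library more than by label. Hspa5 (chromosome 2, 34772090 to 34776529) stood at 349.4 and 336.7 CPM with the WT label and at 417.0, 568.4 and 182.1 CPM with the Ythdf3-/- label. Hsp90b1 (chromosome 10, 86690841 to 86705444) stood at 142.8 and 224.6 CPM against 174.9, 187.5 and 34.2 CPM. Dnajc3 (chromosome 14, 118937932 to 118981702) stood at 185.1 and 94.8 CPM against 130.5, 200.6 and 15.7 CPM. All 3, which are the genes with the ER stress response element printed above, were lowest in the library labelled Ythdf3-/- 3 and overlapped between labels when all 5 libraries were taken. That library was the lowest for 6 of the 8 ER lumen members, against 31.3% of the 67 tested members and 17.1% of all genes tested. The class summed to 472.4 CPM there and to between 900.9 and 1200 CPM elsewhere. The total of 7016670 counts and the 11759 genes with at least 1 count in that library were not the lowest of the 5. The library labelled Ythdf3-/- 1 had 6357862 counts and 11109 such genes. The monocyte and macrophage markers summed to 423.8 CPM in the library labelled Ythdf3-/- 3, the highest of the 5 (166.9 to 263.5 CPM elsewhere), with Csf1r and Adgre1 at 0. Fcer1g made 206.5 CPM of this (85.6 to 199.6 CPM elsewhere) and Cd68 122.6 CPM (at most 23.6 CPM elsewhere). C1qa and C1qc were higher in the library labelled Ythdf3-/- 1, and C1qb in that labelled WT 2. The part of these markers in the low ER values was not tested.

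Dnajb9 and Dnajc1, both J-domain partners of BiP, were also lowest in the library labelled Ythdf3-/- 3, at 26.1 and 19.1 CPM. Neither is among the members with a match of an ER pattern. Dnajc1 had 1555 and 588 counts with the WT label and 154, 315 and 134 with the Ythdf3-/- label, without overlap (log2 fold change -1.69, SE 1.06, edgeR adjusted p = 0.9998). Dnajb11, which holds the shorter ER pattern, did not share the low values, at 101.9 CPM in the library labelled Ythdf3-/- 3. Neither did Dnajc10, a disulfide reductase, at 93.4 CPM, its highest of the 5. The part of these patterns in the levels was not tested. Hspa13, an HSP70-like ATPase of microsomes, had 411 counts in the library labelled WT 2 and between 0 and 29 elsewhere. For Hsp90b1 the log2 fold change moved from -0.56 to -0.10 when the library labelled Ythdf3-/- 3 was left out, and that of Hspa5 moved from 0.10 to 0.45 without it and -0.29 without that labelled Ythdf3-/- 2.

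At the ER membrane, Dnajb12 had 54 and 2 counts with the WT label and 583, 460 and 17 with the Ythdf3-/- label. Dnajc16 had 2 and 1 counts against 145, 153 and 0. In both genes, 2 of the 3 libraries labelled Ythdf3-/- were high, and the third was at or near the level of the libraries labelled WT on the CPM scale. The fit of Dnajb12 (log2 fold change 4.73, SE 2.41) did not pass (edgeR adjusted p = 0.983), and neither did that of Dnajc16. Leaving out each library moved the value of Dnajb12 between 3.84 and 7.54, and it was 2.97 without those labelled WT 2 and Ythdf3-/- 1. Dnajb14 was the reverse case, with 332 and 226 counts against 40, 88 and 8 and no overlap (log2 fold change -2.06, SE 2.12, or -2.69 to -1.57 when each library was left out). Dnajc14 ran from 57.7 to 164.6 CPM with overlapping groups, and Dnajc18 was highest in the library labelled WT 1, at 104.3 CPM against at most 30.4 CPM elsewhere. Of the windows of Dnajc14, 24.6% are shared with Ormdl2.

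In the mitochondrion, the chaperonin lid gene Hspe1 (chromosome 1, 55088148 to 55091317) had the smallest p of all members. It had 1871 and 3360 counts with the WT label and 473, 587 and 324 with the Ythdf3-/- label, or 112.4 and 374.7 CPM against 74.4, 64.7 and 46.2 CPM. Both libraries labelled WT lay above the others, and that labelled WT 2 lay furthest above. The log2 fold change was -2.09 (SE 0.65, unadjusted p = 0.0121, edgeR adjusted p = 0.964). Over the 14 alternatives the adjusted p ran from 0.152 in DESeq2 to 1.0, and without the library labelled WT 2 the log2 fold change was -0.90. The library labelled WT 2 also had the highest sum of proliferation markers (848.6 CPM), and their part in this difference was not tested.

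Hspd1 (chromosome 1, 55077833 to 55088243), the barrel gene that shares the start region printed above, differed less but more evenly. It stood at 246.9 and 287.5 CPM with the WT label and at 170.7, 104.2 and 181.3 CPM with the Ythdf3-/- label, without overlap. The means were 267 ± 28.7 CPM (SD, n = 2) and 152.1 ± 41.8 CPM (SD, n = 3), with a log2 fold change of -0.91 (SE 0.44, unadjusted p = 0.074, edgeR adjusted p = 0.983) that stayed between -1.05 and -0.70 when each library was left out. Of its windows, 26.9% recur, mostly in Hspd1-ps3. The divergent pair, whose shared exon bases touch both counts, was not in a fixed ratio: Hspe1 counts per Hspd1 count, each per length of transcript, were 1.42 and 4.08 with the WT label and 1.36, 1.94 and 0.797 with the Ythdf3-/- label. Hspa9 (mortalin, the HSP70 that pulls proteins into the matrix) stood at 311.6 and 207.5 CPM against 228.7, 86.4 and 127.1 CPM, where 1 library of each label crossed (log2 fold change -0.90, SE 0.53, edgeR adjusted p = 0.9998; -1.34 to -0.63 when each library was left out).

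J-domain partners in the mitochondrion were less regular. Dnajc19, a motor partner at the inner membrane, had 69.8 and 132.2 CPM with the WT label and 91.4, 64.3 and 39.3 CPM with the Ythdf3-/- label, and Dnajc15, a related protein, had 19.0 and 126.0 CPM against 40.4, 93.2 and 52.7 CPM. Single libraries stood out for the rest. Dnaja3 (TID1) was read 24 times in the library labelled Ythdf3-/- 1 and 935 times in that labelled Ythdf3-/- 2, while Dnajc11 was read 27 times in the latter and between 555 and 2181 elsewhere. Dnajc30 had 6 counts in the library labelled WT 2 and between 184 and 1442 elsewhere. It was the 1 mitochondrial member fitted higher with the Ythdf3-/- label, and 21.6% of its windows are shared with its neighbour Bud23.

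**Figure D4:**
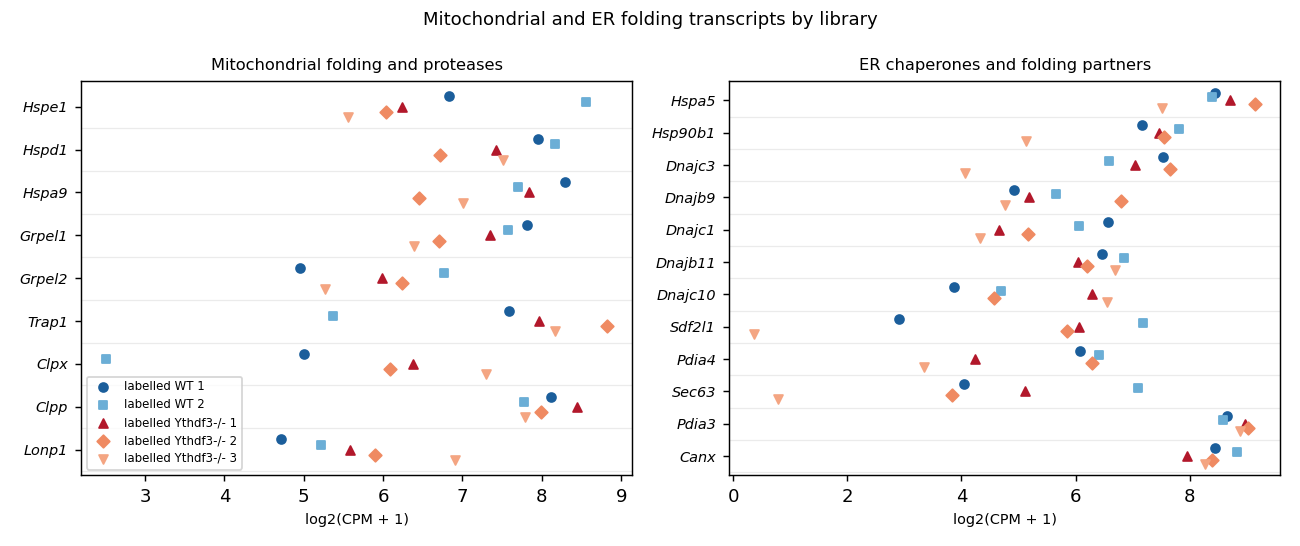
Levels as log2(CPM + 1) on the horizontal axes for mitochondrial genes (left) and ER genes (right), members and partners, with 1 symbol per library. In the left panel Hspe1, Hspd1 and Grpel1 lie higher in both libraries labelled WT while Trap1, Clpx and Lonp1 lie lower in both, and in the right panel Sdf2l1, Sec63, Hsp90b1 and Dnajc3 are lowest in the library labelled Ythdf3-/- 3.

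Partner genes that are not members were read from lists by compartment, and none passed the edgeR test or had an unadjusted p under 0.05. Of the 7 other folding and protease genes of the mitochondrion, 3 had groups that did not overlap and were higher with the Ythdf3-/- label (9.74% of all genes tested), and 1 had groups that did not overlap and was lower (11.0%). Grpel1, the exchange factor of mortalin, lay lower with the Ythdf3-/- label like Hspe1 and Hspd1, at 224.6 and 189.6 CPM against 161.4, 103.6 and 83.1 CPM. In contrast, Trap1, the mitochondrial HSP90, lay higher, at 190.6 and 40.5 CPM against 248.4, 452.5 and 286.2 CPM. Clpx, the unfoldase of the ClpXP protease, had 31.2 and 4.68 CPM against 82.3, 66.8 and 156.8 CPM (edgeR adjusted p = 0.983 for both Trap1 and Clpx). Lonp1, a matrix protease, had 25.2 and 36.1 CPM against 46.9, 58.6 and 119.3 CPM. The list as a whole was 5 fitted higher and 2 lower, with a median log2 fold change of 0.11 against -0.82 for the mitochondrial members; this contrast between lists was not tested.

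Of 15 tested genes of ER folding and the unfolded protein response, 5 were fitted higher and 10 lower (median -0.23). The library labelled Ythdf3-/- 3 was low for some of them, with 2 counts of Sdf2l1, a partner of BiP (108 to 1297 elsewhere), 5 of Sec63, the J-domain protein of the translocon (121 to 1223 elsewhere), and 64 of Pdia4. It was not low for Pdia3, a glycoprotein disulfide isomerase, which had 468.7 CPM there. Nor was it low for Xbp1, the transcription factor of the ER stress response, with 3339 counts. Sil1, Atf4, Atf6 and Ern1 were highest in that library, at 80.0, 129.4, 39.5 and 11.1 CPM. The whole list of 16 genes summed to 2010 CPM there and to between 1883 and 2619 CPM elsewhere. Of 16 tested cochaperones of cytosolic HSP70 and HSP90, 9 were fitted higher and 7 lower (median 0.14). Stub1, the ubiquitin ligase CHIP, had 359.8 and 214.9 CPM with the WT label and 437.6, 448.6 and 541.3 CPM with the Ythdf3-/- label. Its groups did not overlap, and the nucleotide exchange factors Bag1 and Bag5 and the HSP70-binding protein St13 had the same form. Over all genes tested, groups did not overlap for 9.74% that were higher with the Ythdf3-/- label and 11.0% that were lower. Bag3, a target of HSF1, had 164 counts in the library labelled WT 2 and at most 5 elsewhere. Prefoldin, which hands clients to TRiC, had 2 of 6 subunits fitted higher and 4 lower (median -0.38), and Pfdn6 lay lower in every library labelled Ythdf3-/-.

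The 8 members outside these classes had between 122 and 1928 counts in all and each had 5 counts or fewer in at least 1 library. Dnajc4 had 1064 and 300 counts with the WT label and 2, 552 and 10 with the Ythdf3-/- label. Dnajb3 was the 1 of them whose groups did not overlap, with 372 and 221 counts against 2, 1 and 109. Dnajc12 had 22 and 338 counts against 425, 2 and 171, and Hspbap1 had 1 and 312 against 0, 280 and 259. Hspb11, a part of the intraflagellar transport machinery despite its name, had 353 counts in the library labelled WT 2 and between 0 and 95 elsewhere. For Dnajc28, Dnajc25 and Hspa12b the library highest in CPM had 226, 175 and 88 counts. Most were thus near 0 in some libraries and well read in others of the same label, and none passed the test.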

How the data were processed

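The authors deposited 1 table of unnormalized counts, by gene symbol, for 5 libraries. The submitters' processing notes name HISAT2 2.2.1, HTSeq 0.12.4 and mm10; annotation, strand setting and handling of multiply matching reads: not given in the sources used here. Groups follow the sample labels; the series text counts 2 knockout and 3 wild-type samples instead. Counts of all genes were tested with edgeR 4.0.16 in R 4.3.3 (default filter by group, TMM, robust quasi-likelihood, no covariate; Benjamini-Hochberg at 0.05), and members were read from that fit. Standard errors derive from the F statistic. The test was tried on simulated data. CPM are counts per library total. Lengths are of the principal coding transcript in GENCODE M21, and identical windows were searched over 100 bases in its transcripts. Coordinates are of RefSeq GRCm38.p6, in which all 68 members matched. Smart-seq2 keeps no strand or molecule identifiers, so overlapping exons (27 members) cannot be separated, and amplified reads are not independent molecules. Members and gene lists were chosen with earlier results of these data known. Given by name were the core genes of each class, every chaperonin subunit, members with an unadjusted p under 0.05 or groups without overlap at a mean of 10 CPM, and the 3 highest of each class; others were added after their values were seen. Alternatives were 3 scalings, 2 filters, DESeq2 1.42.0, limma 3.58.1 (voom), leaving out each library and a replicate block.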

Additional observations from a re-analysis of the deposited data

How the results depend on the processing

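No member passed the adjusted threshold under any of the 14 alternatives, while between 0 and 6 members had an unadjusted p under 0.05. Over all genes, 21 passed with no filter on low counts, 250 in DESeq2, and between 0 (without WT replicate 2, for example) and 1 (without WT replicate 1) when a library was left out. Deviations of same-numbered libraries from their group mean correlated at -0.0043 and 0.00939. With 2 libraries labelled WT, the deviations of 1 mirror those of the other. These values therefore cannot decide whether replicate numbers pair the samples. With the replicate block, which drops the library labelled Ythdf3-/- 3, 0 genes and 0 members passed, and 270 genes and 0 members had an unadjusted p under 0.05. Of 44 members given by name with a fit, 19 kept the direction of their log2 fold change under every alternative, among them Hspe1, Hspd1, Hspa9, Hspa4, Dnajc5, Cct6a and Hspbp1.

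Leaving out a library turned the direction of 24. Their ranges of log2 fold change were, for the cytosolic chaperonin, Cct2 -1.98 to 2.15, Cct3 -0.26 to 0.30, Cct5 -0.28 to 0.26, Cct7 -0.35 to 0.23, Cct8 -0.17 to 0.78, Tcp1 -0.18 to 0.29. For J-domain genes they were Dnaja1 -0.31 to 0.57, Dnajb1 -0.31 to 0.78, Dnajc3 -1.01 to 0.18, Dnajc8 -0.60 to 0.53, Dnajc9 -0.84 to 0.35, Dnajc12 -0.76 to 4.47, Dnajc14 -0.43 to 0.45, Dnajc17 -0.97 to 5.47, Dnajc18 -2.09 to 0.53. For the others they were Hsf1 -0.21 to 1.19, Hsp90aa1 -1.23 to 0.83, Hspa1l -0.63 to 7.31, Hspa5 -0.29 to 0.45, Hspa8 -0.040 to 0.25, Hspa14 -0.62 to 0.26, Hspb6 -6.31 to 1.65, Hspbap1 -0.75 to 8.26, Hsph1 -0.25 to 4.35. Scaling turned Cct7 (0.022 with DESeq2's size factors in edgeR and in DESeq2, 0.024 by upper quartile, 0.069 by library totals) and, by totals, Cct3 (0.037) and Dnajc14 (0.026). In limma voom Cct2 was 0.61, Cct5 -0.036, Dnajb1 -0.093, Hsp90aa1 0.090 and Hspa5 -0.016. With the replicate block Cct2 was 0.31, Dnajc12 -0.77, Dnajc3 0.21, Dnajc8 0.22, Hspa14 0.25 and Hspbap1 -0.83. Without the libraries labelled WT 2 and Ythdf3-/- 1, an alternative chosen after seeing the data, Cct2 was 2.11, Cct3 0.16, Cct4 0.063, Cct5 -0.10, Dnajb1 -0.77, Dnajc8 0.016, Dnajc9 0.18, Hsf1 -0.19, Hsp90aa1 0.84, Hspa1l -0.49 and Hspa8 -0.063. The cause of these turns was not tested. With 2 libraries labelled WT, 1 library can set a group mean, and leaving out 1 assumes that the other varies like the rest; 3 counts or fewer could not be told from 0.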
